A study of Mus musculus with 22 samples.

Results

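The 41 genes described here encode the machinery that divides a cell: the cyclins and kinases that start mitosis, the chromosomal passenger complex, the spindle checkpoint, regulators of the anaphase-promoting complex, kinetochore proteins, spindle and midzone motors, and a pair of chromosome proteins. They were chosen from a list of mitosis genes by symbol, not by a rule on their measured values, but with earlier results of these data known. All 41 were found among the 37991 genes of the Tet1 cross and among the 37620 genes of the MF1 cross. All 41 also had enough counts to be tested, among 17567 tested genes of the Tet1 cross, and the smallest count of any of them was 107 (Fzr1, in E14.5 Tet1-WT female replicate 2).

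The libraries were made from polyA RNA of sorted mouse primordial germ cells (PGCs), which later give rise to eggs or sperm. In the Tet1 cross both parents were Tet1-het GOF18∆PE-EGFP animals, which carry a germ cell reporter and 1 mutant copy of Tet1, a gene for an enzyme that oxidises methylated cytosine. Their Tet1-WT and Tet1-KO embryos were taken at E10.5, with the sexes together, and at E12.5 and E14.5 as females and males, which gave 10 groups of 2 libraries. A second cross, MF1 x GOF18∆PE-EGFP, gave 2 wild-type libraries at E10.5 from another RNA kit and in a separate table. Each library of the Tet1 cross pooled RNA from 2 to 6 embryos and was amplified before sequencing. Since the labels do not say which embryos went into which library, p-values measure the spread between pooled libraries. In such bulk samples fewer cells of a type and less RNA per cell cannot be told apart.

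Entry into mitosis depends on cyclin B bound to CDK1, which CDC25 phosphatases activate and Aurora A and PLK1 promote. The spindle checkpoint then holds the cell until every kinetochore is attached, after which the anaphase-promoting complex (APC/C) with CDC20 and later FZR1 (CDH1) marks securin and the cyclins for destruction, and midzone kinesins and Ect2 organise cytokinesis. In the mouse, fetal germ cells divide until they become male germ cells that arrest in G1/G0 or female germ cells that enter meiotic prophase. These cells therefore leave mitosis in different ways in the 2 sexes.

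Many mitosis genes share short promoter elements: the cell cycle genes homology region (CHR, letters TTTGAA), which binds the MuvB and DREAM complexes, and the CCAAT box (letters CCAAT), which binds NF-Y. Both were searched on both strands in RefSeq promoters of build GRCm38.p6, from 250 bases before to 50 after the start, which held an entry for 34 of the 41 genes. CHR letters were in 24 of these 34 genes (70.6%), against 20.2% of all 27025 genes with a promoter (17.9% of 32851 promoters). CCAAT letters were in 26 of the 34 (76.5%), against 41.1% of all genes (37.4% of promoters), and 21 members held both. Of the 27 member promoters with CHR letters, 24 had them within 50 bases of the start, and in 1 member promoter letters of the 2 motifs overlapped. These are matches of letters, not measured binding sites.

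The stretches below, 110 bases before to 50 after the start, are shown because the first 3 belong to genes that fell and the last 3 to genes that rose in Tet1-WT female germ cells between E12.5 and E14.5. Capitals mark CHR letters (TTTGAA or TTCAAA) and CCAAT letters (CCAAT or ATTGG).
Bub3, chr7:131560260-131560419, plus strand: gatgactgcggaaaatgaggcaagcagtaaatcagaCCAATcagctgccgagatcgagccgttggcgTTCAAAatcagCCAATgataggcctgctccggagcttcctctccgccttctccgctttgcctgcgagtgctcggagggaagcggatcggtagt
Aurka, chr2:172370521-172370680, minus strand: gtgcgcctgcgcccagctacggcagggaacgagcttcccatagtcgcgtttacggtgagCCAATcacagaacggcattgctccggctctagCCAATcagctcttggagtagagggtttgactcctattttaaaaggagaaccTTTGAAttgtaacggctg
Ccnb1, chr13:100786437-100786596, minus strand: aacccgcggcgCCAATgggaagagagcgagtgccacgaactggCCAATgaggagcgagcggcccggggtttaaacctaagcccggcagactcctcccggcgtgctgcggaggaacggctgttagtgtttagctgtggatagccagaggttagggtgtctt
Bub1, chr2:127831810-127831969, minus strand: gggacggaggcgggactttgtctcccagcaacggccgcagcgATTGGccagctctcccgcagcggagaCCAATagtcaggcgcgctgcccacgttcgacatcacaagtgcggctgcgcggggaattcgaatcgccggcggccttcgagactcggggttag
Kif23, chr9:61946750-61946909, minus strand: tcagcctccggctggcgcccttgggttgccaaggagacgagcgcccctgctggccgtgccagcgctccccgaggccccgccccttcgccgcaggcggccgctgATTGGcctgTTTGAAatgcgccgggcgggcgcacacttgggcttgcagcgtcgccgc
Top2a, chr11:99024140-99024299, minus strand: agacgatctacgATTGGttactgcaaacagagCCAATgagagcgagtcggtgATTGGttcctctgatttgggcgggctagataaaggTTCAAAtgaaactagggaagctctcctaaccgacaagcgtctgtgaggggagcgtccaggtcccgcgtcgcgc
All 6 stretches held CCAAT letters. Bub3 and Aurka, which fell, and Kif23 and Top2a, which rose, also held CHR letters, whereas Ccnb1 and Bub1 held none in this window.

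Total counts per library of the Tet1 cross ranged from 9616436 to 25899505, and the 41 genes took between 0.666% and 1.07% of them. The lowest share was that of E14.5 Tet1-WT male replicate 2, which stood apart from its partner at 0.866%. Counts of the 41 genes called in a comparison that uses it are therefore also given without it. Counts by motif and counts of the other lists are not. Levels are in CPM, the read counts of a gene relative to the scaled library total, in the order replicate 1 and replicate 2. The deposited table repeats 1 name for both Tet1-KO libraries of each E12.5 and E14.5 group, so those libraries have no replicate number and are called a and b. Tet1 was lower in both Tet1-KO libraries than in both Tet1-WT libraries of the same sex at E12.5 and at E14.5. At E10.5 it was 134 and 76.8 CPM in Tet1-WT and, in libraries carrying the Tet1-KO label, 44.5 and 102 CPM, which overlapped, so directions by genotype at E10.5 rest on the labels alone. Germ cell identity genes (12, among them Ddx4, Dazl and Pou5f1) were present in every group, with summed levels from 1497 CPM at E10.5 to 11160 CPM in E14.5 males.

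**Figure D1:**
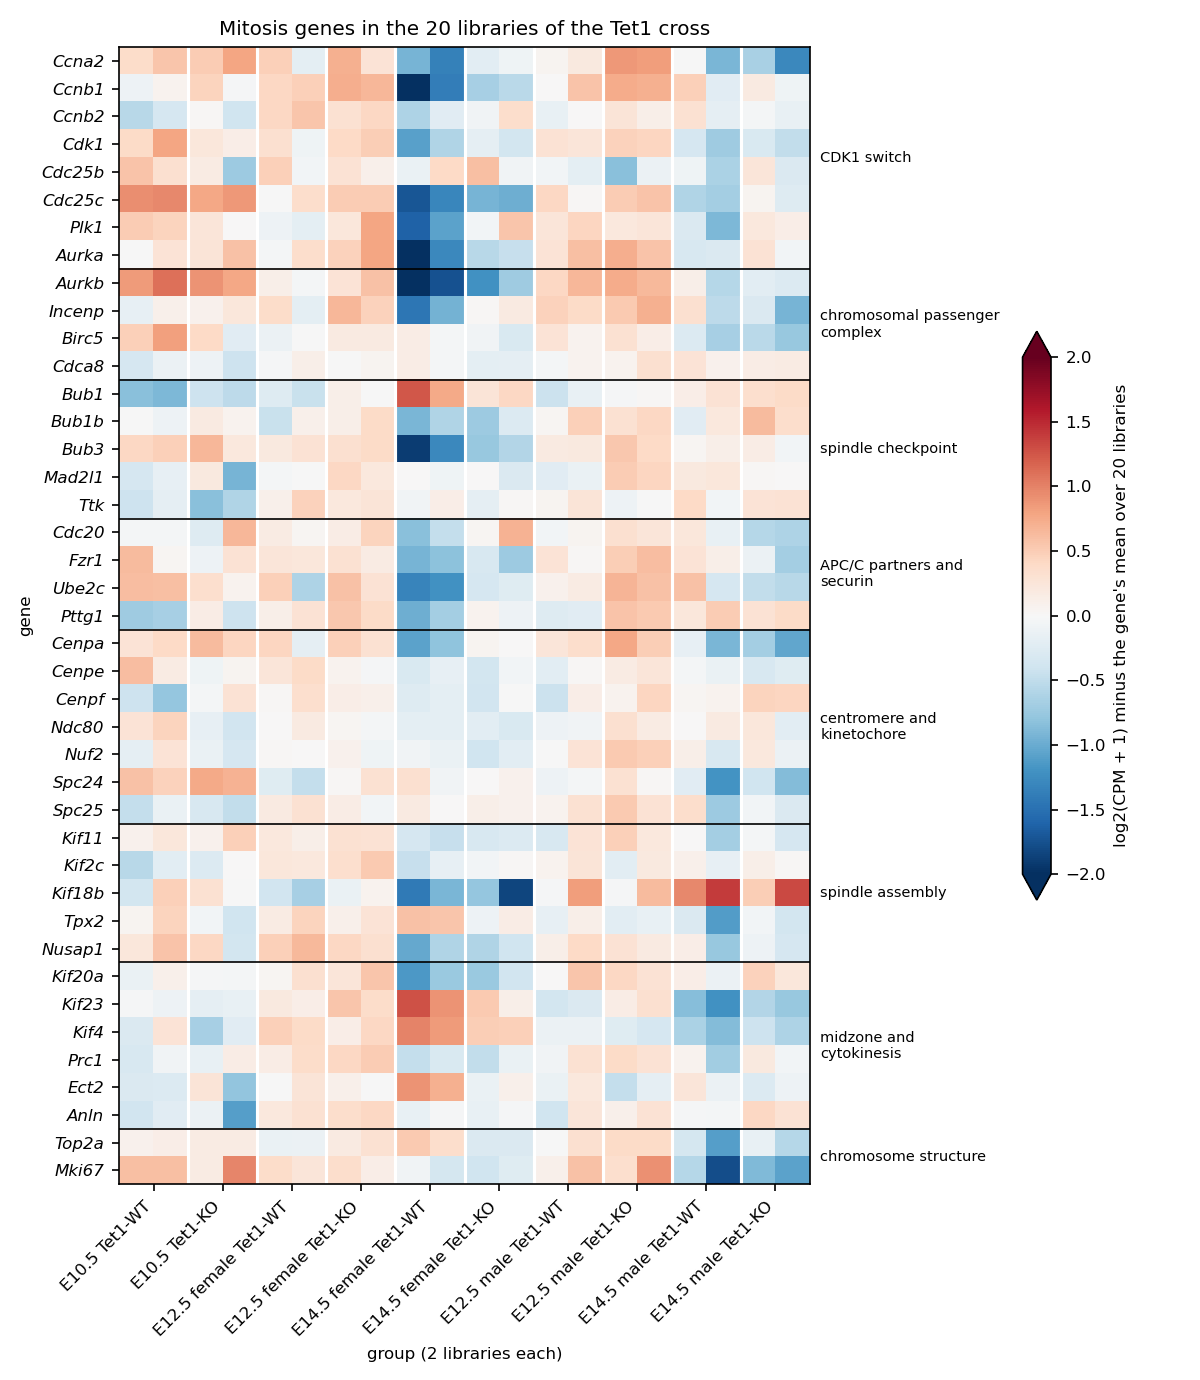
Level of each of the 41 genes (rows, grouped by role) in each of the 20 libraries of the Tet1 cross (columns, 2 per group), as log2(CPM + 1) minus the mean of the gene over the 20 libraries, with red above and blue below that mean. The E14.5 Tet1-WT female columns hold the deepest blue (Ccnb1, Aurka, Aurkb, Bub3) beside red rows (Bub1, Kif23, Kif4, Ect2).

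In Tet1-WT female germ cells 19 of the 41 genes fell and 3 rose from E12.5 to E14.5, where 14% of all tested genes fell and 11.3% rose. The fall took in 7 of the 8 genes of the CDK1 switch and 3 of the 4 APC/C partners and securin, while the checkpoint kinase Bub1, the midzone kinesin Kif23 and the topoisomerase Top2a rose. The median log2 change of the 41 genes was -0.55, against -0.07 for all tested genes. A call here is an adjusted p under 0.05 (edgeR's quasi-likelihood test, Benjamini-Hochberg over all tested genes), and a log2 change is the fitted ratio with its standard error (SE).

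In the CDK1 switch all 3 cyclins fell. Ccnb1 (ENSMUSG00000041431), the main mitotic cyclin, went from 987 and 1026 CPM at E12.5 to 134 and 284 CPM at E14.5, a log2 change of -2.27 (SE 0.30, adjusted p = 6.22e-05). Ccnb2, the other B-type cyclin, went from 374 and 416 to 182 and 241 CPM (log2 -0.90, SE 0.20, adjusted p = 0.00349). Ccna2, cyclin A of S phase and mitosis, went from 68.0 and 42.2 to 25.0 and 18.4 CPM (log2 -1.34, SE 0.32, adjusted p = 0.00519). In each of these genes both E14.5 libraries lay below both E12.5 libraries. Cdk1 itself, the kinase partner of the cyclins, fell from 196 and 148 to 73.6 and 103 CPM (log2 -0.96, SE 0.20, adjusted p = 0.00198).

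The activators of CDK1 divided by gene. Cdc25c, a phosphatase that removes inhibitory phosphates from CDK1, went from 42.7 and 55.0 CPM to 12.4 and 16.6 CPM (log2 -1.76, SE 0.21, adjusted p = 2.67e-05). Its relative Cdc25b was at 24.0 and 16.4 CPM and then at 15.4 and 22.8 CPM, with overlapping libraries (adjusted p = 0.924). The kinase Plk1 fell from 106 and 99.6 to 36.5 and 54.0 CPM (log2 -1.19, SE 0.25, adjusted p = 0.00254). Among the genes of this group Aurka, the spindle pole kinase Aurora A, also fell, from 136 and 178 to 29.5 and 56.2 CPM (log2 -1.88, SE 0.26, adjusted p = 8.36e-05).

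In the chromosomal passenger complex, which corrects faulty kinetochore attachments, the 4 subunits did not move alike. The kinase subunit Aurkb (ENSMUSG00000020897) fell from 81.9 and 73.4 CPM to 12.48 and 21.84 CPM (log2 -2.19, SE 0.28, adjusted p = 3.79e-05). The scaffold Incenp fell as well (log2 -1.33, SE 0.30, adjusted p = 0.00359), from 69.8 and 46.9 to 19.2 and 27.6 CPM. The targeting subunits Birc5 (survivin; log2 0.12, adjusted p = 0.732) and Cdca8 (borealin; log2 0.02, adjusted p = 0.961) had overlapping libraries at the 2 stages.

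The spindle checkpoint held called changes in both directions. Bub3 (ENSMUSG00000066979), the adaptor that brings BUB1 to kinetochores, went from 330 and 351 CPM to 76.7 and 117 CPM (log2 -1.82, SE 0.19, adjusted p = 8.73e-06). Bub1 (ENSMUSG00000027379), the kinase it binds, went from 329 and 289 to 930.5 and 666 CPM (log2 1.37, SE 0.16, adjusted p = 2.01e-05). Neither pair of groups overlapped. The other 3 checkpoint genes, Bub1b, Mad2l1 and Ttk, were not called.

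Among APC/C partners, the securin gene Pttg1 (ENSMUSG00000020415), whose product restrains separase, went from 131 and 148 to 60.9 and 75.3 CPM (log2 -1.03, SE 0.18, adjusted p = 0.000614). Ube2c, the ubiquitin-conjugating enzyme of the APC/C, was at 252 and 118 CPM and then at 72.2 and 77.8 CPM (log2 -1.30, SE 0.30, adjusted p = 0.004). Fzr1, the coactivator that works after mitosis, fell from 24.8 and 24.5 to 10.4 and 11.3 CPM (log2 -1.18, SE 0.29, adjusted p = 0.0069). Cdc20, the coactivator of anaphase, did not pass the threshold (adjusted p = 0.0531), with 69.9 and 64.4 CPM at E12.5 and 34.4 and 44.5 CPM at E14.5.

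Of 7 centromere and kinetochore genes, Cenpa, the centromeric histone H3 variant, fell from 231 and 152 to 81.1 and 97.4 CPM (log2 -1.10, SE 0.24, adjusted p = 0.00274). The kinetochore motor Cenpe fell less (log2 -0.55, SE 0.16, adjusted p = 0.0202). The NDC80 complex, which grips microtubules, showed no called change in any of its 4 genes Ndc80, Nuf2, Spc24 and Spc25. In the spindle group Nusap1, a microtubule bundling protein, fell (log2 -1.37, SE 0.28, adjusted p = 0.00186), as did the depolymerising kinesin Kif2c (log2 -0.52, SE 0.18, adjusted p = 0.0432). Kif11, Kif18b and Tpx2 were not called.

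In the midzone and cytokinesis group, Kif20a, which carries Aurora B to the midzone, fell from 344 and 418 to 150.3 and 200.2 CPM (log2 -1.12, SE 0.21, adjusted p = 0.000919), and the bundling protein Prc1 fell (log2 -0.65, SE 0.22, adjusted p = 0.0417). Kif23 (ENSMUSG00000032254), the kinesin of centralspindlin, rose from 183 and 176 to 391 and 298 CPM (log2 0.94, SE 0.18, adjusted p = 0.000912). Top2a (ENSMUSG00000020914), which untangles sister DNA, rose from 926 and 929 to 1452 and 1295 CPM (log2 0.57, SE 0.20, adjusted p = 0.0461). The proliferation marker Mki67 (ENSMUSG00000031004) was at 238 and 217 CPM and then at 176 and 144.5 CPM, which was not called (adjusted p = 0.286).

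Of the 22 called genes, 12 stayed called when each of the 4 libraries was left out in turn, among them Bub3, Bub1, Cdc25c, Aurkb, Ccnb1, Aurka, Pttg1 and Kif23, and Top2a and Kif2c were called in none of those fits. The count of genes that fell was 12 without E14.5 Tet1-WT replicate 1. Over the same stages the summed meiotic prophase genes (15, among them Sycp3, Rec8 and Stra8) rose from 1660 and 1568 CPM to 13730 and 11310 CPM. The summed germ cell identity genes went from 7099 and 7861 to 5881 and 5682 CPM, with 10 of 12 called lower. The other 2 were not called and had higher levels: Ddx4 (655 and 648 to 1054 and 992 CPM) and Dazl (2067 and 1164 to 3835 and 3137 CPM). The summed mesenchyme markers (10, among them Col1a1 and Pdgfra) went from 790 and 1126 to 38.7 and 34.0 CPM, with no marker at 0 in both libraries of either group. The part of these lists in the changes was not tested.

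**Figure D2:**
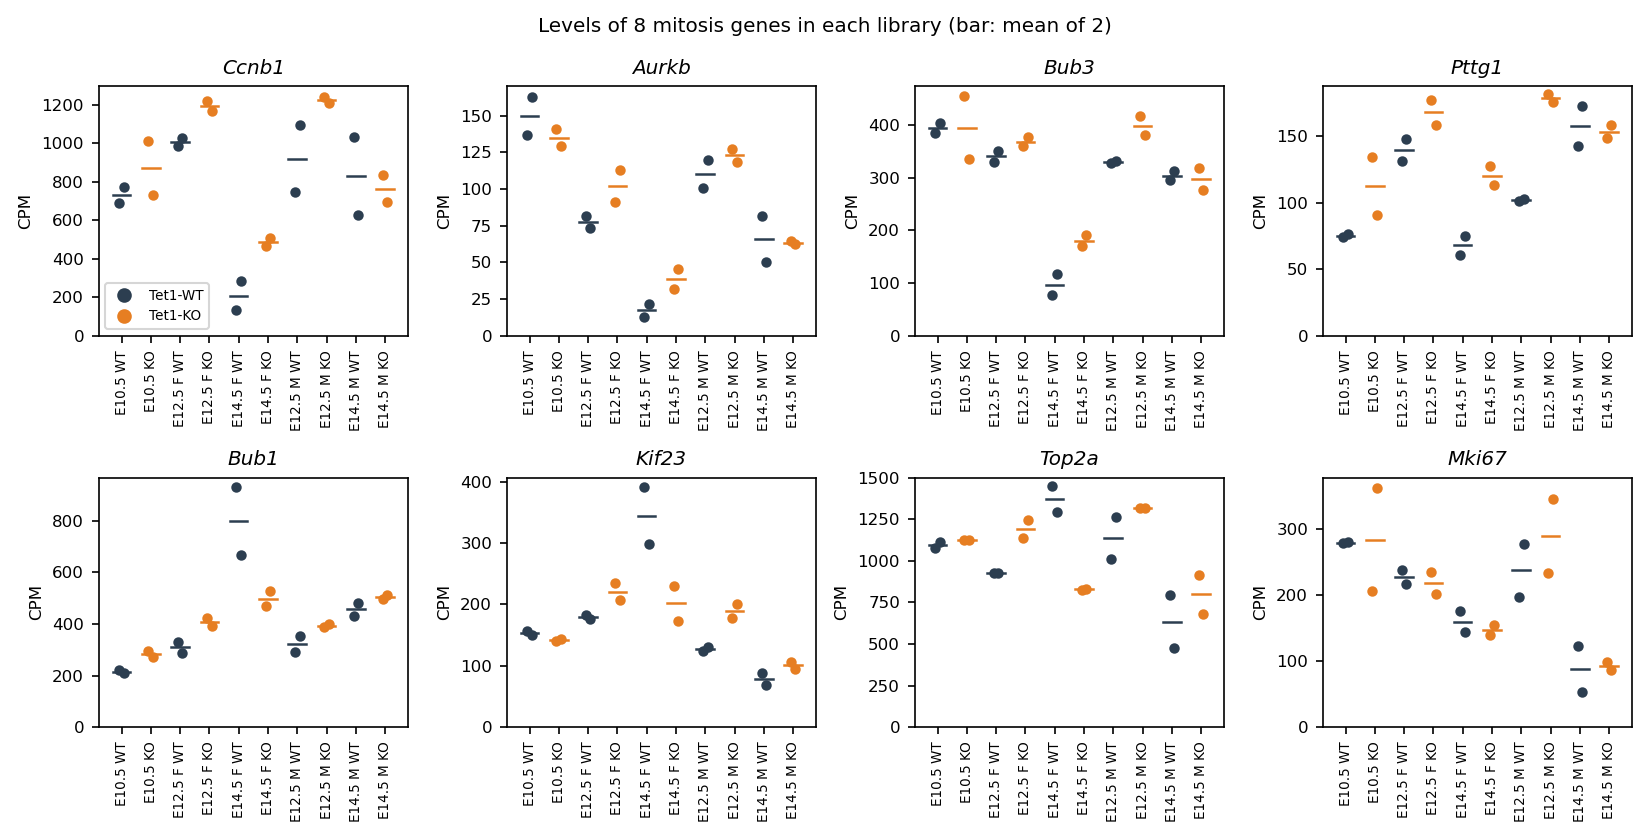
CPM of 8 of the genes in every library of the Tet1 cross (points, Tet1-WT dark and Tet1-KO orange; bars are the mean of 2 libraries), by stage and sex on the horizontal axis. Ccnb1, Aurkb, Bub3 and Pttg1 are lowest in E14.5 Tet1-WT females, Bub1 and Kif23 are highest there, and Mki67 is lowest in E14.5 males of both genotypes.

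In Tet1-WT male germ cells fewer genes were called. From E12.5 to E14.5, 8 of the 41 fell and 2 rose, where 7.75% of all tested genes fell and 4.92% rose, and the median log2 change was -0.26 against 0 for all tested genes. The genes that fell were Cdc25c, Mki67, Top2a, Kif23, Cdk1, Plk1, Cenpa and Kif4, and those that rose were Pttg1 and Bub1.

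Mki67, a marker of cycling cells, had the largest fitted change of the 41 genes in males, from 198 and 278 CPM at E12.5 to 123 and 52.9 CPM at E14.5 (log2 -1.44, SE 0.33, adjusted p = 0.0103). Cdc25c went from 57.4 and 43.5 to 27.8 and 26.3 CPM (log2 -0.90, SE 0.21, adjusted p = 0.00974). Top2a went from 1008 and 1261 to 796 and 473 CPM (log2 -0.84, SE 0.20, adjusted p = 0.0119). In all 3 genes both E14.5 libraries were below both E12.5 libraries, and replicate 2 was the lower of the E14.5 pair. Kif23 fell from 123 and 131 to 88.1 and 68.7 CPM (log2 -0.70, SE 0.17, adjusted p = 0.0166), and Cdk1 from 193 and 186 to 125 and 95.6 CPM (log2 -0.78, SE 0.20, adjusted p = 0.0174).

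Plk1 (136 and 155 to 93.4 and 60.7 CPM, adjusted p = 0.0255) and Cenpa (203 and 217 to 152 and 90.3 CPM, adjusted p = 0.0364) were also lower. Pttg1 rose from 101 and 103 to 142 and 172 CPM (log2 0.62, SE 0.18, adjusted p = 0.0339). Bub1 rose from 293 and 353 to 431 and 481 CPM (log2 0.50, SE 0.16, adjusted p = 0.0475). These were the only members of the list that rose in males under this fit.

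The cyclins and several partners were not called in males. Ccnb1 was at 745 and 1094 CPM and then at 1032 and 629 CPM, and Ccnb2 at 254 and 284 and then at 346.4 and 248.6 CPM, with overlapping libraries in both. Ccna2 was at 50.8 and 56.2 and then at 48.2 and 25.2 CPM. In each of them E14.5 replicate 1 was above replicate 2.

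Aurkb, which had fallen in females, was at 101 and 120 CPM at E12.5 and at 81.6 and 50.2 CPM at E14.5. Bub3 was at 328 and 331 and then at 294.5 and 312 CPM, and Cdc20 at 60.4 and 64.9 and then at 73.6 and 56.2 CPM. Ube2c was at 193 and 204 and then at 272 and 144 CPM. None of these was called, nor were Fzr1 (25.3 and 21.1, then 25.2 and 22.6 CPM) and Cdc25b (16.3 and 14.8, then 15.9 and 10.6 CPM).

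The male calls rested on few libraries. Leaving out E14.5 replicate 2 or either E12.5 library also lowered the number of calls among all tested genes, so those losses were not particular to the 41. Without E14.5 Tet1-WT male replicate 2 none of the 41 was called, without E12.5 replicate 1 the count was 2 lower and 0 higher, and without E12.5 replicate 2 it was 1 lower and 0 higher. Without E14.5 replicate 1, 14 were lower and 1 was higher. The summed mesenchyme markers went from 1832 and 1180 CPM to 33.7 and 22.2 CPM between these stages, and the 15 DNA replication genes, of which 9 fell and 0 rose, were at 3239 CPM in E14.5 replicate 1 and 2112 CPM in replicate 2. Their part in the male changes was not tested.

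A test of the difference between the 2 sexes, the male minus the female change, called 10 of the 41 genes: 6 with a higher and 4 with a lower male value, where 6.26% and 5.85% of all tested genes were called in those directions. The male change was higher in Ccnb1 (difference 2.12 on the log2 scale, SE 0.41, adjusted p = 0.00366), Bub3 (1.70, SE 0.26, adjusted p = 0.000659) and Pttg1 (1.66, SE 0.26, adjusted p = 0.000754), and in Aurkb, Ccnb2 and Ube2c. It was lower in Kif23 (difference -1.64, SE 0.25, adjusted p = 0.000643), Top2a (-1.40, SE 0.28, adjusted p = 0.00407), Kif4 and Bub1. Kif23, Bub3, Pttg1, Ccnb1 and Top2a kept this call in all 8 fits that left out 1 library. Without E14.5 Tet1-WT female replicate 1 the count was 3 higher and 2 lower, and without E14.5 Tet1-WT male replicate 2 it was 7 higher and 3 lower, with Kif4 no longer called. In the separate tests 4 genes fell in both sexes: Cdc25c, Cdk1, Cenpa and Plk1. Bub1 rose in both, and 3 genes were called in opposite directions: Kif23 and Top2a fell in males and rose in females, and Pttg1 did the reverse.

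**Figure D3:**
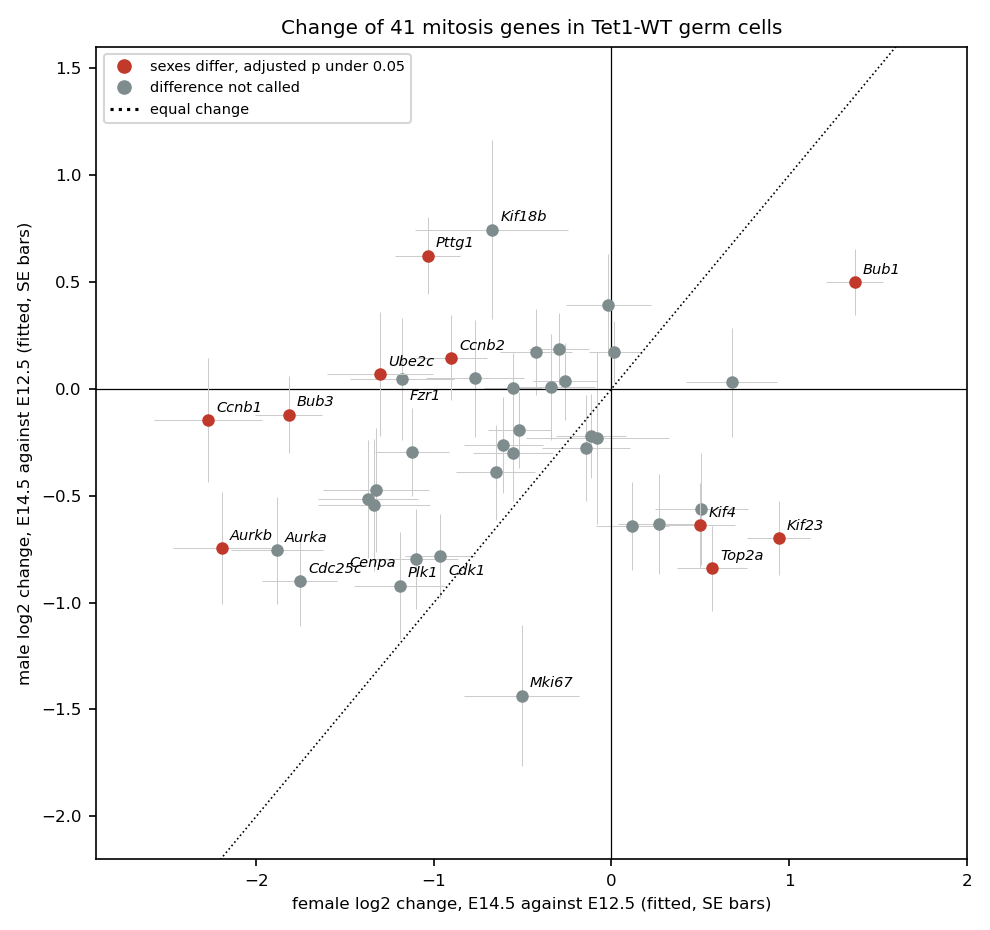
Fitted log2 change from E12.5 to E14.5 of the 41 genes in Tet1-WT females (horizontal) and males (vertical), with SE bars and a dotted line of equal change. Red marks the 10 genes whose change differed between the sexes, of which Ccnb1, Bub3 and Pttg1 lie left of the line and Kif23, Top2a and Kif4 right of it.

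At E14.5 itself, Tet1-WT males and females differed in 20 of the 41 genes, 13 higher and 7 lower in males, where 14% of all tested genes were higher and 14.1% lower. The genes higher in males were Bub3, Aurkb, Ccnb1, Pttg1, Kif18b, Aurka, Ube2c, Kif20a, Cdc25c, Incenp, Fzr1, Bub1b and Plk1. Those lower in males were Kif23, Kif4, Top2a, Tpx2, Bub1, Spc24 and Ect2. This comparison shares its E14.5 libraries with the stage changes above.

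Kif23 was at 88.1 and 68.7 CPM in males against 391 and 298 CPM in females (4.40-fold lower in males, log2 -2.14, SE 0.18, adjusted p = 1.02e-06). Kif4, a chromosome-bound kinesin of the midzone, was at 57.7 and 48.8 against 180.1 and 164 CPM (3.23-fold lower, adjusted p = 1.97e-05). Kif18b, a kinesin that shortens astral microtubules, went the other way, at 61.7 and 84.2 against 11.12 and 16.01 CPM (5.41-fold higher, log2 2.44, SE 0.45, adjusted p = 0.00073). Tpx2, which activates Aurora A on the spindle, was lower in males at 198 and 111 against 363 and 355 CPM (2.33-fold, adjusted p = 0.00108) while Aurka was 2.64-fold higher (adjusted p = 0.00076). In each of these genes the sexes did not overlap.

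Of the 20 calls, 12 were kept in all 4 fits that left out a library. Without E14.5 Tet1-WT female replicate 1, 7 were higher and 5 lower. Without E14.5 Tet1-WT male replicate 2, 16 were higher and 5 lower, and Bub1b, Spc24 and Ect2 were no longer called. Testis supporting cell genes (6) summed to 14.1 and 17.6 CPM in males against 4.08 and 1.06 CPM in females, where Amh and Dhh were at 0 in both libraries, and 3 of the 5 tested were higher in males. Steroidogenic genes (6) summed to 15.3 and 15.1 against 3.57 and 2.01 CPM, with none called, and 8 of 12 germ cell identity genes were higher and 14 of 15 meiotic prophase genes lower in males. Their part in these differences was not tested. At E12.5, by contrast, none of the 41 genes was called between Tet1-WT males and females by edgeR or by DESeq2. By edgeR 0.575% of all tested genes were called in either direction. An unadjusted p under 0.05 was found for 6 of the 41 and for 2222 of the 17567 tested genes. The lowest adjusted p there was 0.220, and the range of log2 differences ran from -0.56 (Kif4) to 1.02 (Kif18b).

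Between E10.5 and E12.5 calls were made in both directions. In females 6 genes rose and 4 fell, where 8.81% of all tested genes rose and 4.83% fell, and in males 1 rose and 1 fell, where 6.40% rose and 3.05% fell. The median log2 changes of the list were 0.03 and 0.04. These 2 comparisons share the E10.5 Tet1-WT libraries, and both include Bub1, which was at 220 and 211 CPM at E10.5 (log2 0.52, adjusted p = 0.0368 in females, and 0.58, adjusted p = 0.0275 in males), and Cdc25c, which was at 82.6 and 84.0 CPM (log2 -0.77, adjusted p = 0.02, and -0.72, adjusted p = 0.0356).

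In females Pttg1 rose from 73.8 and 76.6 CPM (log2 0.89, SE 0.18, adjusted p = 0.00421), Ccnb2 rose from 192 and 222 CPM (log2 0.93, SE 0.20, adjusted p = 0.00588), and Cenpf, Kif2c and Ttk rose. Aurkb fell from 137 and 163 CPM (log2 -0.95, SE 0.26, adjusted p = 0.0249), and Birc5 and Spc24 fell. Pttg1 alone kept its call in all 4 fits without a library. Without E10.5 replicate 1, E10.5 replicate 2 or E12.5 female replicate 2 there were 2 higher genes, with 1, 0 and 1 lower, and without E12.5 female replicate 1 there were 4 higher and 1 lower. In males, Bub1 kept its call only without E12.5 male replicate 1, where it was the only member called, and no member was called without E10.5 replicate 1 or E12.5 male replicate 2. Cdc25c kept its call in none of the 4 fits, and without E10.5 replicate 2 the only call was 1 lower gene, another member.

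The remaining E10.5 Tet1-WT levels were as follows. Ccna2 was at 63.3 and 72.2, Ccnb1 at 689 and 774.5, Cdk1 at 205 and 273, Plk1 at 163 and 156, and Cdc25b at 25.9 and 21.4 CPM. Bub3 was at 385 and 403, Cdc20 at 61.0 and 61.0, Fzr1 at 32.6 and 21.3, and Ube2c at 277 and 274 CPM. Top2a stood at 1075 and 1113, Mki67 at 278 and 281, and Cenpa at 207 and 225 CPM. None of these genes was called between E10.5 and E12.5. The germ cell identity genes summed to 1839 and 1497 CPM in E10.5 Tet1-WT, against 7099 and 7861 CPM in E12.5 females and 5108 and 6206 CPM in E12.5 males, and 6 erythroid genes to 105 and 1422 CPM at E10.5. The part of these markers in the changes was not tested.

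In Tet1-KO germ cells the fall from E12.5 to E14.5 was again found in both sexes, with no gene that rose. Tet1-KO females had 9 lower and 0 higher genes (7.02% and 4.02% of all tested genes), with a median log2 of -0.46. Tet1-KO males had 11 lower and 0 higher (4.87% and 5.50% of all tested genes), with a median log2 of -0.45. In females the genes were Cdc25c, Bub3, Aurkb, Kif20a, Aurka, Ccnb1, Cdk1, Prc1 and Bub1b, and in males Cenpa, Ccna2, Kif23, Mki67, Cdk1, Birc5, Incenp, Ube2c, Top2a, Aurkb and Fzr1. Cdk1 and Aurkb were in both.

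In Tet1-KO females Cdc25c went from 61.5 and 61.0 to 22.02 and 21.32 CPM (log2 -1.50, SE 0.21, adjusted p = 0.000436). Bub3 went from 360 and 377 to 170 and 192 CPM (log2 -1.03, SE 0.18, adjusted p = 0.00226). Aurkb went from 91.2 and 113 to 32.0 and 45.8 CPM (log2 -1.39, SE 0.27, adjusted p = 0.00364). These 3 calls were kept in all 4 fits that left out a library. Ccnb1 was at 1222 and 1168 and then at 467 and 508 CPM (adjusted p = 0.0107), and Cdk1 at 209 and 222 and then at 139 and 122 CPM (adjusted p = 0.0279).

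Among the 3 genes that had risen in Tet1-WT females, Bub1 in Tet1-KO females was at 423.9 and 391.7 CPM and then at 469 and 525 CPM, Kif23 at 235 and 207 and then at 230 and 173 CPM, and Top2a at 1140 and 1245 and then at 827 and 830 CPM. None of the 3 was called. The genotype difference in the female change was called for Bub1 (Tet1-KO minus Tet1-WT, -1.08, SE 0.22, adjusted p = 0.029) and Kif23 (-1.07, SE 0.25, adjusted p = 0.044), while that of Top2a was not (-1.09, adjusted p = 0.0674). Thus 0 of the 41 were called higher and 2 lower in this difference, where 0.740% and 0.564% of all tested genes were. Neither was called without E14.5 Tet1-WT replicate 1, E12.5 Tet1-WT replicate 2, E12.5 Tet1-KO a or b, or E14.5 Tet1-KO b.

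A further 10 members had these Tet1-KO female levels. Ccna2 was at 79.9 and 59.2 and then at 41.9 and 45.8 CPM, Ccnb2 at 347 and 374 and then at 268 and 360 CPM, and Plk1 at 135 and 199 and then at 111 and 168 CPM. Cdc20 was at 69.2 and 85.5 and then at 64.2 and 102 CPM, Cdc25b at 21.03 and 18.26 and then at 26.4 and 16.2 CPM, and Fzr1 at 26.0 and 23.4 and then at 16.4 and 12.2 CPM. Ube2c was at 273 and 222 and then at 144 and 154 CPM, Pttg1 at 177 and 159 and then at 127 and 113 CPM, Cenpa at 239 and 210.5 and then at 177 and 172 CPM, and Mki67 at 236 and 201 and then at 139 and 155 CPM. Of these 10, the libraries of the 2 stages overlapped for Plk1, Cdc20, Cdc25b and Ccnb2, and none was called.

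In Tet1-KO males Cenpa went from 292 and 241 to 106 and 82.6 CPM (log2 -1.50, SE 0.24, adjusted p = 0.00157), the only call kept in all 4 fits that left out a library. Ccna2 went from 89.7 and 87.8 to 30.6 and 19.4 CPM (log2 -1.83, SE 0.32, adjusted p = 0.00259). Mki67 went from 234 and 346 to 99.5 and 87.4 CPM (log2 -1.63, SE 0.33, adjusted p = 0.00635). Both E14.5 libraries were below both E12.5 libraries in each. Kif23 fell from 179 and 200.1 to 107 and 94.8 CPM (adjusted p = 0.00468), Cdk1 from 217 and 212 to 128 and 111 CPM (adjusted p = 0.0142), and Top2a from 1315 and 1319 to 916 and 680 CPM (adjusted p = 0.0298).

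Aurkb (127 and 119 to 64.8 and 62.2 CPM), Ube2c (291 and 272 to 129 and 123 CPM) and Fzr1 (29.5 and 32.2 to 19.0 and 12.6 CPM) fell in Tet1-KO males with adjusted p = 0.0313, 0.0213 and 0.0442. Not called were Ccnb1 (1243 and 1211, then 836 and 693 CPM), Ccnb2 (335 and 305, then 273 and 253 CPM), Plk1 (133 and 135, then 133 and 126 CPM) and Bub3 (416 and 380, then 319 and 277 CPM). Cdc20 (78.0 and 73.8, then 41.7 and 40.4 CPM), Cdc25b (9.09 and 15.7, then 20.4 and 13.8 CPM), Cdc25c (60.9 and 63.9, then 44.4 and 35.8 CPM) and Pttg1 (182 and 176, then 148 and 158 CPM) were not called either. Without E14.5 Tet1-KO male b, 1 gene was lower, without E12.5 a or b 4 were, and without E14.5 a 8 were. The female count was 5 without E12.5 a, 4 without E12.5 b, 4 without E14.5 a and 6 without E14.5 b.

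For the male change the difference between genotypes was called in none of the 41 genes by edgeR, where 0.803% of all tested genes were called in either direction. An unadjusted p under 0.05 was found for 8 of the 41 and for 2700 of the 17567 tested genes. DESeq2 called 1 member lower, where it called 690 higher and 266 lower of 13480 genes. The summed mesenchyme markers differed between the genotypes at E12.5, with 41.6 and 44.9 CPM in Tet1-KO females and 260 and 162 CPM in Tet1-KO males, and were 13.8 to 38.7 CPM in all 8 libraries at E14.5. Their part in the changes of the 41 genes was not tested.

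At E14.5 Tet1-KO males and females differed in 10 genes, 6 higher and 4 lower in males, where 11.6% of all tested genes were higher and 7.43% lower. Kif18b was at 44.4 and 79.4 CPM in males against 17.8 and 8.01 CPM in females (4.82-fold higher, log2 2.27, SE 0.44, adjusted p = 0.00228). Kif23 was at 107 and 94.8 against 230 and 173 CPM (log2 -1.001, SE 0.18, adjusted p = 0.00107), and Kif4 at 67.3 and 58.3 against 126 and 126 CPM (log2 -1.005, SE 0.20, adjusted p = 0.00265). These 3 calls were kept in all 4 fits that left out a library. Bub1b, Kif20a, Cdc25c, Bub3 and Cenpf were also higher in males, and Cenpa and Cdc20 lower. The count was 1 higher and 4 lower without female a, 4 and 3 without female b, 1 and 3 without male a, and 5 and 2 without male b. Testis supporting cell genes summed to 37.5 and 21.9 CPM in Tet1-KO males against 0.659 and 0 CPM in females, where 5 of the 6 were at 0 in both libraries, and 4 of the 5 tested were higher in males. Steroidogenic genes summed to 20.1 and 29.6 against 4.29 and 1.75 CPM, with 3 of 5 tested higher. Of the germ cell identity genes 7 were higher and 1 lower, and 12 of 15 meiotic prophase genes were lower, and the part of these markers was not tested.

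The genotypes were compared directly at each stage. At E14.5, Tet1-KO females differed from Tet1-WT females in 12 of the 41 genes, 9 higher and 3 lower, where 3.36% of all tested genes were higher and 3.29% lower. The higher genes were Plk1, Bub3, Aurka, Pttg1, Incenp, Aurkb, Ccnb1, Cenpa and Cdc20, and the lower ones Kif23, Bub1 and Top2a. This comparison shares the E14.5 Tet1-WT female libraries with the stage and sex comparisons above, so its directions are not independent of theirs.

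In females Plk1 stood at 111 and 168 CPM in the knockout and at 36.5 and 54.0 CPM in the wild type (3.10-fold higher, log2 1.63, SE 0.26, adjusted p = 0.00263). Bub3 was at 170 and 192 against 76.7 and 117 CPM (1.87-fold higher, log2 0.90, SE 0.18, adjusted p = 0.00947), and Aurka at 94.6 and 101 against 29.5 and 56.2 CPM (log2 1.198, SE 0.26, adjusted p = 0.0128). Pttg1 was at 127 and 113 against 60.9 and 75.3 CPM (adjusted p = 0.0151), and Ccnb1 at 467 and 508 against 134 and 284 CPM (log2 1.23, SE 0.30, adjusted p = 0.0225). In each of these genes both Tet1-KO libraries were above both Tet1-WT libraries. On the other side Kif23 was at 230 and 173 against 391 and 298 CPM (log2 -0.77, SE 0.17, adjusted p = 0.0163), Bub1 at 469 and 525 against 930.5 and 666 CPM (log2 -0.68, SE 0.16, adjusted p = 0.0176), and Top2a at 827 and 830 against 1452 and 1295 CPM (log2 -0.73, SE 0.20, adjusted p = 0.0378).

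**Figure D4:**
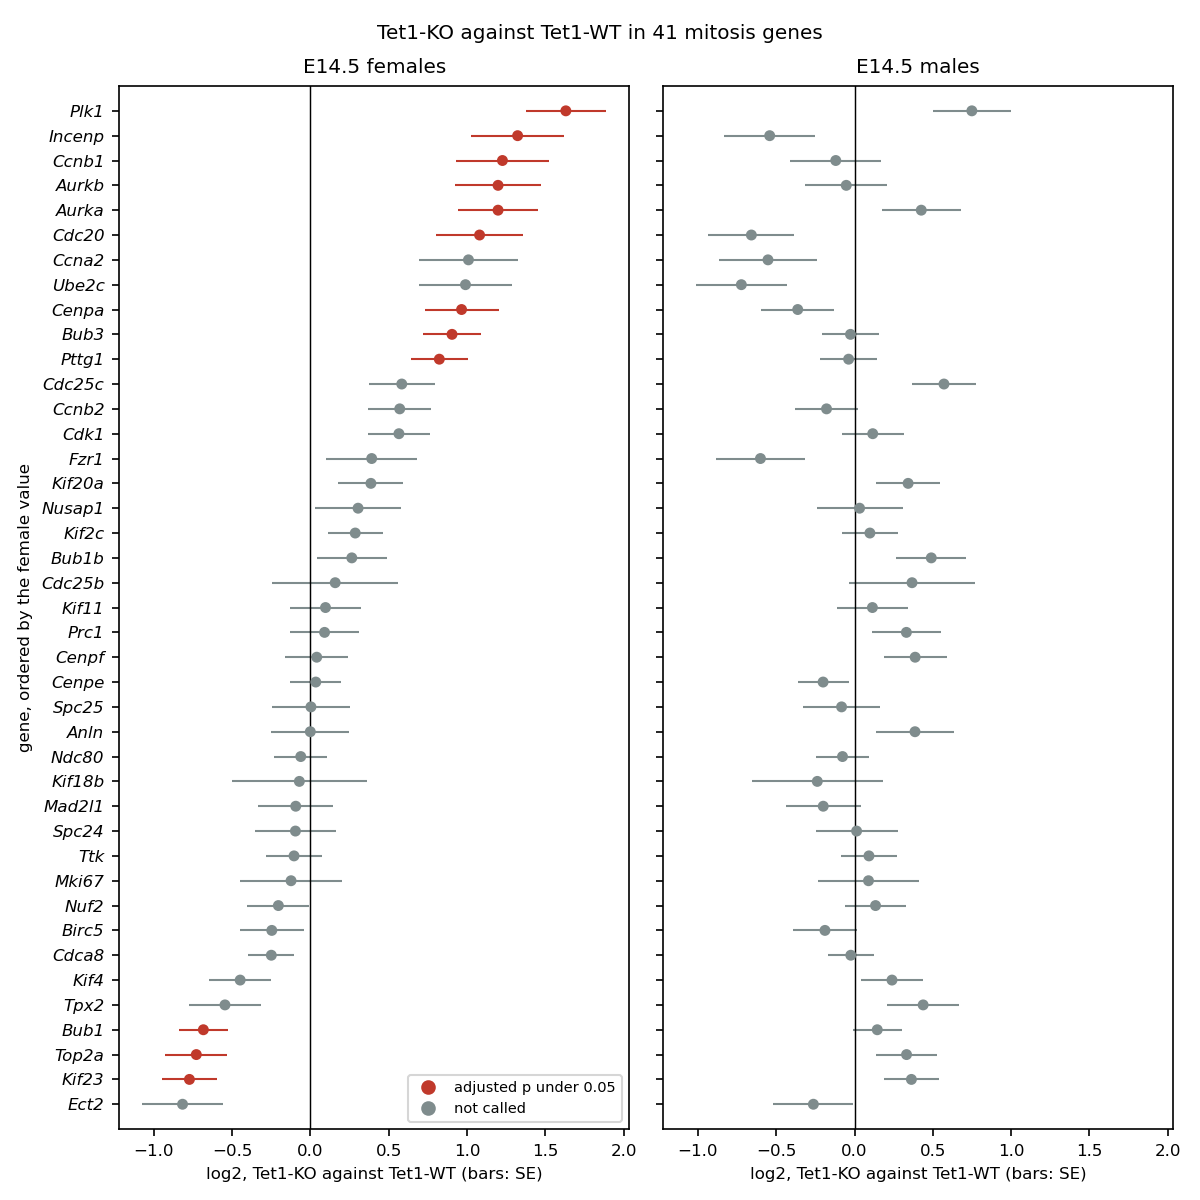
Fitted log2 difference of Tet1-KO against Tet1-WT at E14.5 for the 41 genes (rows, in the order of the female value) in females (left) and males (right), with SE bars and red for an adjusted p under 0.05. In females Plk1 to Pttg1 lie to the right and Bub1, Top2a and Kif23 to the left of 0, and in males no gene is red.

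None of these 12 calls was kept in all 4 fits that left out a library. Without Tet1-WT female replicate 1, the replicate with the lower levels of Bub3, Ccnb1, Plk1 and Aurka, none of the 41 was called, and without Tet1-KO female b 1 was higher and 0 lower. Without Tet1-KO a the count was 10 higher and 1 lower, and without Tet1-WT replicate 2 it was 7 and 2. Without Tet1-WT replicate 1 or Tet1-KO b, calls among all tested genes fell as well, so these losses were not particular to the 41. A fit of these 4 libraries alone called 4 higher and 1 lower, where 162 and 375 of 14073 tested genes were. The summed meiotic prophase genes were at 5584 and 4388 CPM in Tet1-KO females against 13730 and 11310 CPM in Tet1-WT females, with 10 of 15 lower and 0 higher. Of the 12 germ cell identity genes 9 were higher and 0 lower (median log2 1.48), although their sums were 5450 and 5840 against 5881 and 5682 CPM. Ddx4 (765 and 695 against 1054 and 992 CPM) and Dazl (1839 and 1510 against 3835 and 3137 CPM) had lower levels in Tet1-KO and were not called. The part of either list in the result was not tested.

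In E14.5 males none of the 41 genes was called between genotypes by edgeR or DESeq2. By edgeR 0.102% of all tested genes were called in either direction. An unadjusted p under 0.05 was found for 5 of the 41 and for 1815 of the 17567 tested genes. In E12.5 females none was called by either tool, where edgeR called 1.29% of all tested genes. There 2 of the 41 and 2270 of the 17567 tested genes had an unadjusted p under 0.05. The median log2 of the 41 genes in E12.5 females was 0.22, against -0.02 for all tested genes, and 27 were above 0. In E12.5 males 1 gene was higher in Tet1-KO and 0 were lower, where 0.12% and 0.939% of all tested genes were. That gene was Pttg1, at 182 and 176 CPM against 101 and 103 CPM (1.75-fold, log2 0.81, SE 0.18, adjusted p = 0.0455), and the call was lost when any of the 4 libraries was left out. In E12.5 males the median log2 of the 41 genes was 0.24, against 0 for all tested genes, and 32 were above 0. These E12.5 shifts of the whole list were not tested, and the same Tet1-KO libraries enter the Tet1-KO stage changes above. The E12.5 mesenchyme markers given above were lower in Tet1-KO in both sexes, and their part was not tested.

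At E10.5 the libraries labelled Tet1-KO had 1 higher and 1 lower gene, where 4.10% and 4.70% of all tested genes were. Cenpf, a kinetochore and nuclear matrix protein, was at 434 and 546 CPM against 334 and 262 CPM (log2 0.72, SE 0.20, adjusted p = 0.0396). Ndc80 was at 74.8 and 64.1 against 101 and 115 CPM (log2 -0.64, SE 0.17, adjusted p = 0.0316). Without Tet1-WT replicate 2 neither was called, and without Tet1-KO replicate 2 neither was, although 1 other member was then called higher. Without Tet1-WT replicate 1 Cenpf lost its call and Ndc80 kept it, and without Tet1-KO replicate 1 there were 1 higher and 4 lower genes, both among them. The labelled Tet1-KO libraries held 6389 and 4183 CPM of germ cell identity genes against 1839 and 1497 CPM, and 366 and 808 CPM of mesenchyme markers against 1549 and 1830 CPM, whose part was not tested.

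None of the other members was called at E10.5, and their levels in the libraries labelled Tet1-KO were as follows. Ccna2 was at 69.5 and 85.0, Ccnb1 at 1011 and 729, Ccnb2 at 285 and 214, Cdk1 at 184 and 172, and Plk1 at 135 and 116 CPM. Aurkb was at 141 and 129, Bub3 at 455 and 334.5, Cdc20 at 52.2 and 99.6, Cdc25b at 19.2 and 9.92, and Cdc25c at 73.7 and 78.6 CPM. Top2a was at 1128 and 1127, Mki67 at 206 and 363, Cenpa at 266 and 229, Fzr1 at 19.3 and 25.5, Ube2c at 229 and 191, and Pttg1 at 134 and 90.9 CPM. Among these 16 genes the ratio between the 2 libraries was largest for Cdc25b, Cdc20 and Mki67.

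The MF1 libraries, with 59415040 and 66924911 counts, were compared with E10.5 Tet1-WT in a fit of their own. None of the 41 was called by edgeR, where 0.606% of 15500 tested genes were called in either direction. An unadjusted p under 0.05 was found for 3 of the 41 and for 3340 of the 15500. DESeq2 called 1 of the 41 higher and 1 lower, where it called 896 higher and 1573 lower of 14598 genes. Pttg1 had the smallest adjusted p by edgeR (0.118), at 181 and 312 CPM in MF1 against 74.9 and 76.0 CPM. Fits without either MF1 library kept 1 library in that group. They called more genes among all tested genes as well as among the 41, so their rise was not particular to the 41. Cross, RNA kit and table differ together here and cannot be told apart.

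Over the 15 comparisons of 2 groups, 34 of the 41 genes were called at least 1 time and 7 were called in none: Cdc25b, Cdca8, Mad2l1, Nuf2, Spc25, Kif11 and Anln. These 7 include a CDC25 phosphatase, borealin, the checkpoint protein MAD2, the NDC80 complex subunits NUF2 and SPC25, the bipolar kinesin KIF11 and anillin of the cleavage furrow. In E14.5 Tet1-WT females against E12.5 their log2 changes ran from -0.55 (Kif11, SE 0.23) to 0.02 (Cdca8, SE 0.15), which does not show that they stayed the same.

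Genes of the same processes outside the 41 gave a wider view. Of 49 other mitosis genes, 19 fell and 9 rose in Tet1-WT females between E12.5 and E14.5 (median log2 -0.10). Of all tested genes 14% fell and 11.3% rose there (median -0.07). In Tet1-WT males 4 of the 49 (8.16%) fell and 0 rose (median -0.23). Of all tested genes 7.75% fell and 4.92% rose in these males (median 0), so the share that fell was near that of all tested genes. Shcbp1, Cdca2 and Cdca5 were the called genes with the smallest p in females, with log2 changes of -1.63, -1.58 and -1.75 (adjusted p = 5.64e-06, 2.95e-05 and 2.95e-05). At E14.5, 16 of the 49 were higher and 13 lower in Tet1-WT males than in females, where 14% of all tested genes were higher and 14.1% lower. In Tet1-KO females 13 fell and 1 rose, where 7.02% of all tested genes fell and 4.02% rose. In Tet1-KO males 7 fell and 0 rose, where 4.87% fell and 5.50% rose. In the E14.5 female genotype comparison 3 were higher and 6 lower, where 3.36% and 3.29% of all tested genes were.

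From E12.5 to E14.5, 14% of all tested genes fell and 11.3% rose in Tet1-WT females. In Tet1-WT males 7.75% fell and 4.92% rose. Of 14 APC/C subunits, partners and inhibitors, 3 rose and 3 fell in these females, and 1 rose and 2 fell in these males. In the males Fbxo5 (EMI1), an APC/C inhibitor, went down by a log2 of -1.49 (SE 0.35, adjusted p = 0.0128). Of 9 brakes and activators of CDKs, 4 fell and 0 rose in females and 1 fell in males, with Cdkn1c (p57) called in both (log2 -1.95 and -2.59). Cdkn1c was at 129 and 226 CPM in E12.5 Tet1-WT females and 48.8 and 42.9 CPM at E14.5, but at 23.6 and 21.2 CPM in E12.5 Tet1-KO females, where the mesenchyme markers were also lower, and it rose there to 62.6 and 44.8 CPM (log2 1.26, SE 0.36, adjusted p = 0.0369). The part of those markers in its fall was not tested. Of 19 DREAM, MuvB, RB and E2F regulators, 6 fell and 2 rose in females and 4 fell and 1 rose in males, and Mybl2 (B-MYB), which joins MuvB on CHR promoters, fell by 1.87 on the log2 scale in females (SE 0.21, adjusted p = 1.47e-05). Of 15 DNA replication genes, 6 fell and 1 rose in females and 9 fell and 0 rose in males, with Gins2 at a log2 of -2.68 in males (SE 0.32, adjusted p = 8.79e-05). By CHR letters, 9 of the 14 members that fell in Tet1-WT females and have a promoter entry held them. So did 2 of the 3 that rose and 13 of the 17 not called. In males all 7 of the genes that fell with an entry held them, against 0 of the 2 that rose and 17 of the 25 not called. The male calls rested on few libraries, as given above, and so does this split by motif.

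Exons of 13 members overlap an exon of another gene, so their counts may include its reads. The 13 are Ccna2, Cdc20, Cdc25b, Cdc25c, Cdca8, Fzr1, Kif20a, Kif4, Nusap1, Plk1, Prc1, Top2a and Ube2c. Top2a overlaps Gm23451 on the same strand, where a strand setting would not separate them. For the others the overlap is on the opposite strand, and the strand setting is not given in the sources used here. Ccnb1, Ccnb2 and Kif4 also have pseudogenes by symbol in the GENCODE annotation, so reads could be split between copies.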

How the data were processed

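RNA-seq read counts per gene were analysed as the authors deposited them, in a table of 20 libraries of the Tet1 cross and a table with the MF1 cross. Per the submitters' processing notes, the tools named were Trimmomatic, TopHat2 2.0.2, Bowtie 0.12.8 and HTSeq 0.5.3p9 with mm9. Strand settings are not given in the sources used here. Symbols were matched to 32919 of 37991 gene IDs.

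Counts were tested with edgeR 4.0.16 (R 4.3.3): TMM scaling, filterByExpr with a count minimum of 10 and a total minimum of 15, and a robust quasi-likelihood fit of all 10 groups at once (17567 genes, 10 residual degrees of freedom). The biological coefficient of variation was 0.46, and 0.78 in the separate fit with MF1 (15500 genes). Genes with a p under 0.05 after Benjamini-Hochberg adjustment over all tested genes count as called. The procedure was tested on simulated counts. Group means rest on 2 libraries each, which limits precision.

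Alternatives were DESeq2 1.42.0, RLE scaling, no filter, only the groups compared, and leaving out each library. A fit of the 12 numbered libraries and the same fit with a replicate block were chosen after seeing the data. The 41 genes and all other lists were chosen with earlier results of these data known. Values in every library were given for 16 genes (Ccna2, Ccnb1, Ccnb2, Cdk1, Plk1, Aurkb, Bub3, Cdc20, Cdc25b, Cdc25c, Top2a, Mki67, Cenpa, Fzr1, Ube2c and Pttg1), and per comparison for up to 5 called members with the smallest adjusted p and up to 3 of the opposite direction. Up to 3 called genes of each other list could be named. Promoter sequences are from RefSeq (GRCm38.p6), and overlapping exons from GENCODE. Plots used matplotlib 3.10.9.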

Additional observations from a re-analysis of the deposited data

Results flagged for a closer look

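For 10 genes the Tet1-WT change from E12.5 to E14.5 differed between the sexes by a test of the difference itself (male minus female, log2). The difference was -1.64 for Kif23, 1.7 for Bub3, 1.66 for Pttg1, 2.12 for Ccnb1, -1.4 for Top2a, -1.14 for Kif4, -0.87 for Bub1, 1.45 for Aurkb, 1.04 for Ccnb2 and 1.37 for Ube2c. The same test between genotypes in females (Tet1-KO minus Tet1-WT) gave -1.08 for Bub1 and -1.07 for Kif23.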

How the results depend on the processing

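Of 121 calls on single members, none changed direction under any alternative; 121 held under DESeq2, 112 under RLE, 112 without the filter and 82 in fits of only the groups compared. Fewer held in the 12 numbered libraries (45 of 76), with the replicate block (43 of 76) and over all fits that left out a library (301 of 532). Counts of called members below are totals of both directions, with the reported total first, and the cause of each shift was not tested. The number of calls among all tested genes changed in each of these fits too, and is given for some of them. For the Tet1-WT male change to E14.5 (10) the 12 numbered libraries gave 2, only the groups compared 1, and the replicate block 1. For Tet1-WT females from E10.5 to E12.5 (10) these fits gave 2, 4 and 2. For males from E10.5 to E12.5 (2) they gave 0, 1 and 0, DESeq2 gave 4 and no filter 1. Only the groups compared gave 25 for the Tet1-KO male change (11), 5 for Tet1-KO against Tet1-WT females at E14.5 (12) and 5 for males at E12.5 (1), where no filter gave 2 and RLE 0. For the Tet1-KO male change the fit of only the groups compared called 2547 higher and 2260 lower of 13959 tested genes, against 966 and 855 of 17567. For the Tet1-WT male change it called 836 higher and 1175 lower of 14704, against 865 and 1362 of 17567. No filter gave 16 for Tet1-KO males against females at E14.5 (10) and 1 for the genotypes in E14.5 males (0). For the genotype labels at E10.5 (2) DESeq2 gave 5, no filter 1, RLE 1, and the 12 numbered libraries, only the groups compared and the replicate block 0. DESeq2 there called 1119 higher and 1700 lower of 15523 genes, against 721 and 826 of 17567 by edgeR. For the sex difference in the Tet1-WT change (10) DESeq2 and no filter gave 17, the 12 numbered libraries 5, and only the groups compared and the replicate block 6. For the genotype difference in the male change (0) DESeq2 gave 1, and no filter and only the groups compared 2. For that in the female change (2) DESeq2 and no filter gave 4 and only the groups compared 0. For MF1 (0) DESeq2 gave 2 and no filter 1.

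Leaving out each library in turn gave 14 to 19 for the Tet1-WT female change (22), 0 to 15 for the male change, 12 to 21 for the sexes at E14.5 (20), 0 to 0 at E12.5 (0), 2 to 5 and 0 to 1 from E10.5 to E12.5 in females and males, 4 to 6 and 1 to 8 in Tet1-KO females (9) and males, and 4 to 7 for the sexes in Tet1-KO. For genotype it gave 0 to 5 at E10.5, 0 to 1 and 0 to 0 at E12.5 in females (0) and males, and 0 to 11 and 0 to 0 at E14.5. It gave 5 to 11 for the sex difference, 0 to 3 and 0 to 0 for the genotype difference in females and males, and 0 to 18 for MF1. Where a group kept 1 library, that library was assumed to vary like the other groups. The number of calls among all tested genes changed in these fits as well.

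Deviations of same-numbered libraries, taken over all tested genes, correlated between -0.032 and 0.048 over 15 pairs of groups. They thus showed no gene-by-gene pattern shared by same-numbered libraries over all tested genes, which cannot exclude one shared by a subset of genes. A shift of equal size in all genes could not show in such a correlation. The replicate block, fitted to the numbered libraries alone, gave 18 for the Tet1-WT female change. No paired analysis was possible for comparisons with E12.5 or E14.5 Tet1-KO because those columns carry no replicate numbers.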
